A study of Drosophila melanogaster with 6 samples.

Results

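The odorant-binding protein genes and the chemosensory receptor genes of Drosophila were compared between control salivary gland imaginal rings and imaginal ring tumors. Members were taken by symbol from the authors' deposited table of called genes: odorant-binding proteins (Obp), odorant receptors (Or), gustatory receptors (Gr), ionotropic receptors (Ir), pickpocket channels (ppk) and the chemosensory proteins CheA and CheB. The symbols picked 29 of 6156 listed genes, of which 18 were Obp genes, 9 were receptor or channel genes (3 Or, 2 Gr, 3 Ir, 1 ppk) and 2 were Che genes. The symbols did not use measured values, but the table itself holds only genes that the authors called at an adjusted p below 0.05, so every member in it differs by that rule.

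RNA sequencing covered 3 control samples of genotype Actts>GFP from larvae of the third instar and 3 samples titled ImR tumor, of genotype Actts>GFP+NICD, labelled with 7 days at 18 °C and then 7 days at 29 °C. Both groups carry the ubiquitous actin driver, GFP and Gal80ts, a temperature-sensitive repressor that sets when the driver acts. Tumors in addition express NICD, the active intracellular part of the receptor Notch. The labels give neither days nor temperatures for controls, so genotype, age and temperature cannot be told apart, and nothing there tells pools from separate animals. The p-values then reflect only how much these samples vary, in part perhaps for technical reasons. The files hold no value per sample and no SD, SE or library total, so no sample's value, error or depth can be given, and p-values are the authors'. Fold changes are tumor against control, and CPM is counts per 1000000 reads, given as the authors' mean over the 6 libraries.

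Odorant-binding proteins are small secreted proteins that bind hydrophobic molecules in the fluid around the dendrites of olfactory and taste neurons. They are made by the support cells of sense organs, and many are also made in tissues with no sense organ. Odorant, gustatory and ionotropic receptors are ligand-gated channels of sensory neurons. Odorant receptors need the co-receptor Orco, and ionotropic receptors work with co-receptors such as Ir25a, Ir8a and Ir76b. Pickpocket proteins are sodium channel subunits of the DEG/ENaC family that act in touch, salt, water and pheromone sensing. CheA and CheB proteins are secreted proteins of taste organs, some of which act in pheromone sensing.

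The families split by direction. Of the 18 listed Obp genes, 15 were lower and 3 higher in tumor, with a median log2 fold change of -3.24. All 9 listed receptor and channel genes were higher, with a median of 4.04, or 3.54 without the gene fitted at 0 in control. CheA29a was higher and CheB42c lower. In the authors' deposited comparison 31.6% of the 9384 tested genes were called lower and 34.0% higher, and over all 6156 listed genes the median was 0.57 with 51.8% higher. All 29 members passed a 2-fold difference in the estimate itself, with sizes from 1.55 (Obp18a) to 10.93 (Obp99b) on the log2 scale.

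**Figure D1:**
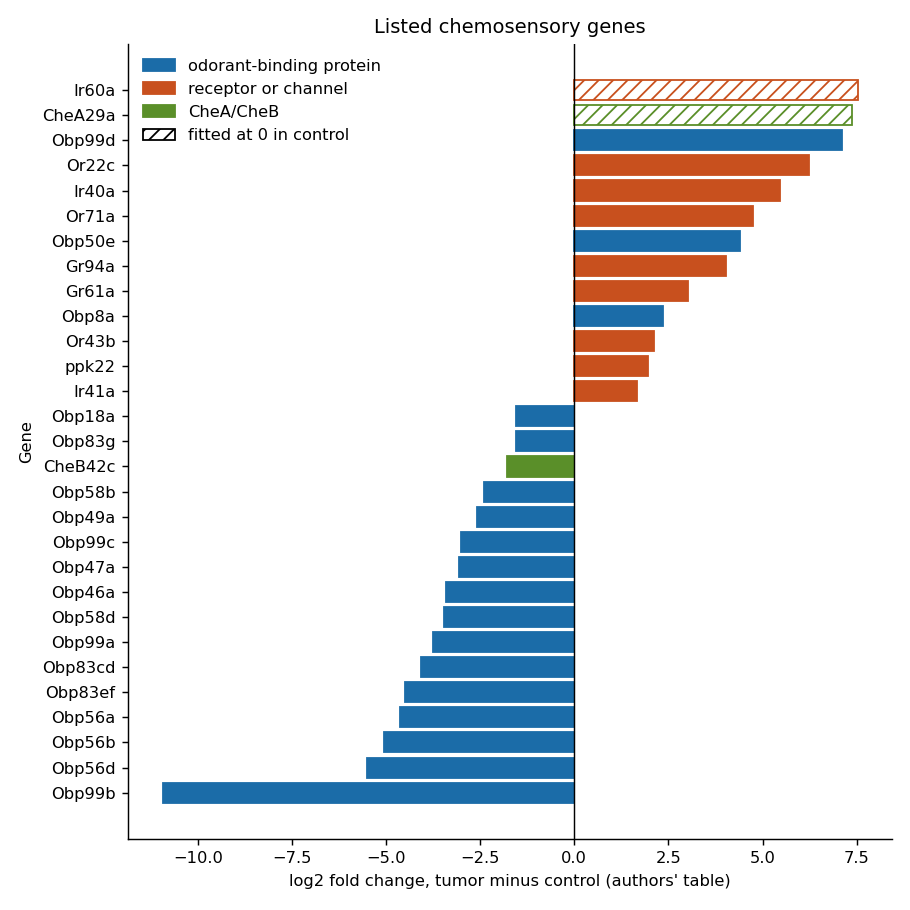
Log2 fold change (tumor minus control, horizontal axis) of each of the 29 listed members per the authors' deposited table, with 1 bar per gene coloured by family. The receptor and channel bars all point to higher values, and 15 of 18 Obp bars to lower ones, with Obp99b longest at -10.93. Hatched bars are genes fitted at 0 in control, whose length is no fold.

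Most annotated family members were not in the table. The name table holds 51 Obp genes, of which 18 were listed (35.3%), and 215 receptor and channel genes, of which 9 were listed (4.19%), against 42.4% of 13986 annotated protein-coding genes. By family, 3 of 60 Or genes, 2 of 60 Gr genes, 3 of 66 Ir genes, 1 of 29 ppk genes, 1 of 8 CheA genes and 1 of 12 CheB genes were listed. An unlisted gene was either tested and not called or not tested, and the table does not say which.

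Direction and level went together in the table as a whole. All 9 receptor and channel genes had mean levels between 0.43 and 2.52 CPM, below the lower quartile of listed genes (8.31 CPM). Within that range the table lists 755 genes, of which 606 (80.3%) were higher in tumor, and below 1 CPM 266 of 285 (93.3%) were higher. The receptors' shared direction therefore lies near that of listed genes of the same level. At or above the lower quartile 54.7% of 4617 listed genes were lower, beside 9 of 11 Obp genes at those levels, and at or above 100 CPM 72.4% of 1007 were lower, beside 4 of 4 Obp genes. Among the Obp genes within the receptors' range of levels 4 were lower and 1 higher.

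**Figure D2:**
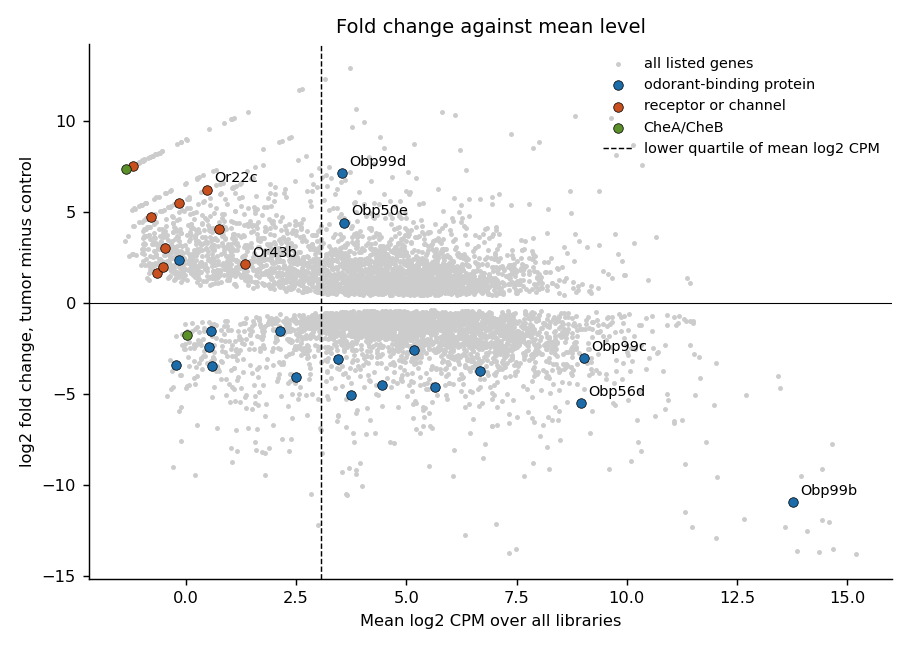
Log2 fold change against mean log2 CPM over all libraries for all 6156 listed genes (grey) and the members (coloured by family), with the lower quartile of mean log2 CPM as a dashed line. Every receptor and Che gene lies left of the line, where most listed genes are higher in tumor, and Obp99b lies alone among the members at the right.

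Obp99b carried most of the Obp signal and fell the most. The authors' deposited table gives it a mean of 13957 CPM, the 11th highest of all listed genes, and a log2 fold change of -10.93 (1953-fold lower, adjusted p = 3.44e-05), the 18th largest fall. It held 91.5% of the summed mean CPM of the listed Obp genes. Taking the mean as the average of both groups, its level was estimated at 27900 CPM in control against 14.3 CPM in tumor. Such estimates rest on unknown scaling factors and are not shares of reads.

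The next most abundant members were also lower in tumor. By the authors' deposited table, Obp99c fell by 3.01 on the log2 scale (8.07-fold lower, mean 521 CPM, adjusted p = 0.0020). Obp56d had a log2 fold change of -5.49 (mean 499 CPM, adjusted p = 0.0024) and Obp99a fell by 3.75 (13.5-fold lower, mean 103 CPM, adjusted p = 0.0051) per the authors' deposited table. With Obp99b these are the 4 Obp genes above 100 CPM. Without Obp99b the Obp genes summed to an estimated 2368 CPM in control against 222 CPM in tumor.

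Per kilobase of annotated exon the order at the top was the same. The mean level was 23497 CPM per kilobase for Obp99b, 779 for Obp99c, 541 for Obp56d and 168 for Obp99a. The median was 22.7 CPM per kilobase over the 18 listed Obp genes and 0.38 over the 9 receptor and channel genes, whose highest value was 1.79 (Or43b).

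The Obp56 genes fell by similar amounts. Obp56a fell by 4.63 (24.7-fold lower, mean 50.5 CPM, adjusted p = 0.0019) on the log2 scale and Obp56b fell by 5.05 (33.1-fold lower, mean 13.4 CPM, adjusted p = 0.0013) per the authors' deposited table, beside -5.49 for Obp56d. Whether these sizes differ from one another was not tested. The other 6 genes of the same row, Obp56c and Obp56e to Obp56i, were not in the table.

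Obp83cd and Obp83ef encode proteins with a tandem pair of binding domains. By the authors' deposited table Obp83ef was 22.7-fold lower (mean 21.9 CPM, adjusted p = 1.86e-05) and Obp83cd 16.8-fold lower (mean 5.68 CPM, adjusted p = 3.36e-05). They lie on opposite strands and share 92 exon bases, about 10.2% of each, so without strand information those reads cannot be assigned. Their neighbor Obp83g was 2.94-fold lower (adjusted p = 0.024) per the authors' deposited table.

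Obp46a, Obp49a, Obp58b and Obp58d were lower per the authors' deposited table, with log2 fold changes of -3.41, -2.57, -2.41 and -3.47. Obp49a, which in adult taste organs acts in the suppression of sweet responses by bitter compounds, had a mean of 36.1 CPM and was 5.94-fold lower per the authors' deposited table, with an adjusted p of 0.048, the closest of all members to the 0.05 limit. The other 3 had means below 2 CPM. Obp47a was 8.39-fold lower (mean 10.9 CPM, adjusted p = 0.011) and Obp18a 2.94-fold lower (mean 1.49 CPM, adjusted p = 0.0051) per the authors' deposited table.

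Of the 3 higher Obp genes, the one with the largest fold had the weakest p. Obp50e had the smallest p of any member per the authors' deposited table, at 21.3-fold higher, a mean of 12.1 CPM and an adjusted p of 1.06e-05. Obp99d was 139-fold higher at nearly the same mean, 11.7 CPM, but with an adjusted p of 0.031 per the authors' deposited table. Obp8a, whose protein is known from seminal fluid, was 5.09-fold higher at 0.89 CPM (adjusted p = 0.015) per the authors' deposited table.

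The listed Obp genes were also placed in chromosomal order. Since 15 of all 18 were lower, a shared fall within a row says little about gene order. A link to gene order was not tested. With at most 2 other protein-coding genes allowed between members, 35 Obp genes formed 9 rows, which held 12 of the 18 listed genes. In 3 rows every listed gene was lower: Obp56 (3 listed of 9), Obp83cd to Obp83g (3 of 3) and the row from Obp59a to Obp58d (2 of 4). The row of Obp50 genes held 1 listed gene of 5, Obp50e, at the end of the row. None of the 11 genes in the other 4 rows (Obp19a to Obp19d, Obp57a to Obp57c, Obp57d with Obp57e, Obp83a with Obp83b) was in the table.

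The row of Obp99c, Obp99d and Obp99b was mixed. Obp99d rose by 7.12 on the log2 scale per the authors' deposited table, while Obp99c fell by 3.01 and Obp99b fell by 10.93. The gene between Obp99d and Obp99b is Dup99B, which encodes a peptide of the ejaculatory duct related to sex peptide and was named after its value was seen. Dup99B was 193-fold higher (mean 3.36 CPM, adjusted p = 0.043) per the authors' deposited table. Of the 40 genes listed as at least 7 higher on the log2 scale and not fitted at 0, Dup99B and Obp99d had the largest and next largest p (0.028 and 0.019), where the median p was 2.005e-05. What set these p-values apart was not tested, since no value per sample was used.

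**Figure D3:**
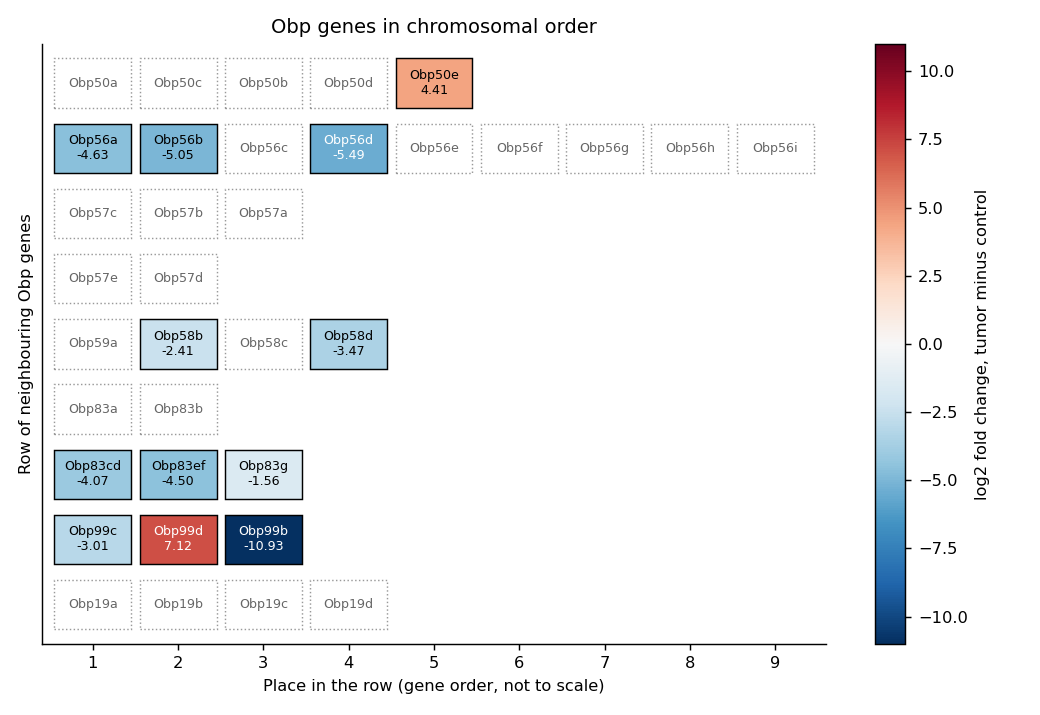
Rows of neighboring Obp genes in chromosomal order (place in the row on the horizontal axis, not to scale), coloured by log2 fold change, tumor minus control. Dotted boxes are genes not in the authors' deposited table. Listed genes of the Obp56, Obp58 and Obp83cd to Obp83g rows are all lower, and Obp99d (7.12) stands beside Obp99b (-10.93).

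For most lower Obp genes the p was larger than the median p of other listed genes of like direction, fold (within 0.5 on the log2 scale) and mean level (within 1). This held for 10 of the 14 lower Obp genes that had such genes to compare. Obp99c had a p of 0.00075, larger than in all 40 like genes (median 1.49e-06), and Obp49a a p of 0.031, larger than in all 152 like genes (median 1.3e-05). Obp83cd, Obp83ef, Obp18a and Obp46a had a p below the median of their like genes. Obp50e had a smaller p than 26 of its 27 like genes, and Obp99d a larger p than all 11.

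Among the odorant receptors, Or22c was 74.6-fold higher (mean 1.39 CPM, adjusted p = 0.00034), the smallest adjusted p among the receptors per the authors' deposited table. Or71a, a receptor of the maxillary palp for ethylphenols, was 26.6-fold higher at 0.58 CPM (adjusted p = 0.0036) per the authors' deposited table. Or43b, a receptor of adult antennal neurons, had the highest receptor level at 2.52 CPM and was 4.34-fold higher (adjusted p = 0.0038) per the authors' deposited table. Among the 27 members not fitted at 0 in control, the shrunken and unshrunk log2 fold changes per the authors' deposited table differed most for Or22c (6.22 and 6.38).

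Among the ionotropic receptors, Ir40a, which acts in the sensing of dry air in the antennal sacculus, was 44.1-fold higher (mean 0.90 CPM, adjusted p = 0.0019) per the authors' deposited table. Ir41a, which acts in the sensing of polyamines, was 3.16-fold higher (mean 0.63 CPM, adjusted p = 0.012) per the authors' deposited table. Ir60a (mean 0.43 CPM, adjusted p = 0.0043) is fitted at 0 in controls by the authors' deposited table, which leaves no fold to print. The gustatory receptor gene Gr94a was 16.5-fold higher (mean 1.68 CPM, adjusted p = 0.0030), and Gr61a, of the sugar receptor group, 8.16-fold higher (mean 0.72 CPM, adjusted p = 0.0043), per the authors' deposited table. The channel gene ppk22 was 3.92-fold higher (mean 0.70 CPM, adjusted p = 0.030) per the authors' deposited table. By estimate no listed receptor or channel gene passed 4.10 CPM in tumor or 0.94 CPM in control.

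The co-receptor genes Orco, Ir25a, Ir8a, Ir76b and Ir93a were not in the table. Nor was lush, which encodes an Obp of pheromone sensing, or Snmp1, a membrane protein of pheromone-sensing neurons. CheA29a (mean 0.39 CPM, adjusted p = 0.0063) is fitted at 0 in controls by the authors' deposited table. CheB42c was 3.43-fold lower (mean 1.03 CPM, adjusted p = 0.040) per the authors' deposited table.

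Of the 11 listed receptor, channel and Che genes, 6 overlap another listed gene in the annotation, and all 6 moved in the same direction as that gene. Over all listed genes 24.6% overlap another listed gene, and 60.7% of these have the direction of at least 1 gene they overlap. That share was not matched for level. All 11 genes lie below the lower quartile of mean level, where 71.15% of listed genes were higher. Ir60a lies inside nord, CheA29a inside dachs, Or71a inside Plp and Gr94a inside p53, with no shared exon bases. The authors' deposited table gives log2 fold changes of 2.84 for nord, 2.87 for dachs, 1.22 for Plp and 1.14 for p53. The values for Or71a (4.73) and Gr94a (4.04) were larger than those of the genes around them. Or43b shares 40.7% of its exon bases with Cul1 on the opposite strand (0.49), and CheB42c shares 58.3% with mim on the same strand (-1.09), per the authors' deposited table. Reads of overlapping genes are uncertain because the strand setting is not known, and the part of the overlapping gene in each result was not tested. Or22c, Ir40a, Gr61a, ppk22 and Ir41a overlap no annotated gene. Among the Obp genes, Obp99c shares 23 exon bases with Gycalpha99B, which was higher (2.37) per the authors' deposited table.

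**Figure D4:**
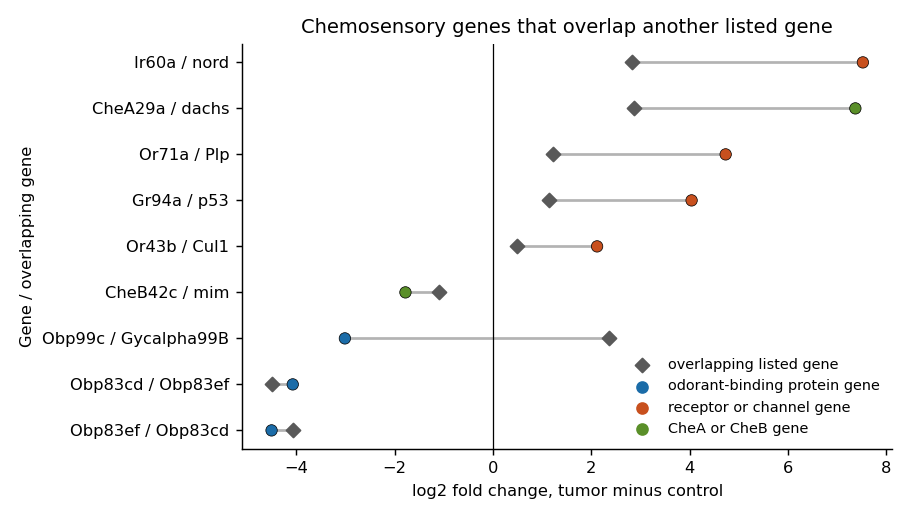
Log2 fold change, tumor minus control, of each member that overlaps another listed gene (circle, coloured by family) and of the overlapping gene (grey diamond). All pairs lie on the same side of 0 except Obp99c with Gycalpha99B.

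Other genes of chemosensation were read from lists that were not part of the families. As a reference for these and the marker lists below, 34.0% of the 9384 tested genes were called higher and 31.6% lower. Of 13986 annotated protein-coding genes, 42.4% were listed in either direction. The lists are counted over all their known genes, some of which may not have been tested. Their shares are therefore not directly comparable with those over tested genes. Of 16 other extracellular proteins 6 were listed, 5 lower and 1 higher (median -1.88). The sterol-binding protein genes Npc2g, Npc2f and Npc2h were 14.4-fold, 10.9-fold and 6.17-fold lower, and the pherokine gene Phk-3 was 3.73-fold higher, per the authors' deposited table. Of 13 signaling partners 4 were listed and all 4 were higher (median 3.11). They were the ammonium transporter gene Amt (log2 fold change 6.85, mean 2.88 CPM), the phospholipid flippase gene ATP8B (4.31), the phospholipase C gene norpA (1.91) and the G protein gene Galphao (1.54) per the authors' deposited table. Amt acts in the sensing of ammonia and ATP8B in odorant receptor function.

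Of 20 other sensory ion channel genes 9 were listed, 8 higher and 1 lower (median 2.25). The TRPA channel gene wtrw was 51.3-fold higher at a mean of 85.3 CPM, Tmc 20.4-fold and brv3 17.6-fold higher, whereas brv2 was 421-fold lower at 2.06 CPM, per the authors' deposited table. Of 13 ionotropic glutamate receptor genes, the family from which Ir genes derive, GluRIIB was 3.38-fold higher and Ekar 2.41-fold lower per the authors' deposited table, and 11 were not listed. Of 16 transcription factor genes used in chemosensory neurons 5 were listed, all higher (median 2.12). Eip93F (27.5-fold), lz (5.64-fold), pb (4.36-fold) and pdm3 (3.83-fold) had the smallest adjusted p among them per the authors' deposited table. The other 11 were not listed, among them the olfactory neuron factor genes acj6, ato and amos. Which cells expressed the 5 listed factors was not measured, so their rise is not assigned to neurons.

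Markers of other cell types moved as well, and in bulk samples fewer cells of a type and less RNA per cell cannot be told apart. All 8 fat body markers were lower (log2 fold changes from -12.32 to -0.59), with an estimated sum of 137410 CPM in control and 1108 CPM in tumor. Fbp2, Lsp1alpha, Lsp1beta and Yp3 were 5125-fold, 3869-fold, 561-fold and 121-fold lower per the authors' deposited table. Of 6 markers of salivary gland secretory cells 5 were lower (-13.81 to -5.50) and fkh was not listed, with an estimated sum of 200880 CPM in control and 51.2 CPM in tumor. Control samples labelled imaginal ring thus held abundant glue gene transcripts such as Sgs7, with a mean of 37562 CPM and 14339-fold lower in tumor by the authors' deposited table. Sgs5, Sgs3 and sage were 13161-fold, 11576-fold and 45.4-fold lower per the authors' deposited table. The part of these cell types in the Obp falls was not tested.

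Beside the receptor rises, neuron markers were divided. Of 7 such genes 4 were listed, with elav (4.41-fold), futsch (4.97-fold) and Syx1A (2.89-fold) higher and Syt1 5.40-fold lower per the authors' deposited table, and nSyb, brp and para not listed. These markers summed to an estimated 190 CPM in control against 152 CPM in tumor. Of 7 sensory organ precursor genes, neur was 3.72-fold higher and sens 4.65-fold lower (mean 71.3 CPM) per the authors' deposited table. The genes ac, sc, ase, ato and amos were not listed. With 1 gene each way, the list gives no direction for such cells. Of 5 genes taken as markers of sense organ support cells, sv (16.3-fold) and pros (9.52-fold) were higher per the authors' deposited table. The genes nompA, wrapper and Snmp1 (given above as a protein of neurons) were not listed. Hemocyte markers were higher in 6 of 7 genes (3.10 to 6.16; srp not listed), with an estimated sum of 28.2 CPM in control and 1473 CPM in tumor. PPO2, PPO1, eater and He were 71.3-fold, 43.8-fold, 42.7-fold and 22.3-fold higher per the authors' deposited table. Tracheal markers were higher in 5 of 5 genes (2.87 to 4.10), with an estimated sum of 24.9 CPM in control and 212 CPM in tumor. Bulk values do not show which cells expressed these markers, so a higher list is not by itself a cell type found in tumor. The part of these cell types in the receptor rises was not tested.

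**Figure D5:**
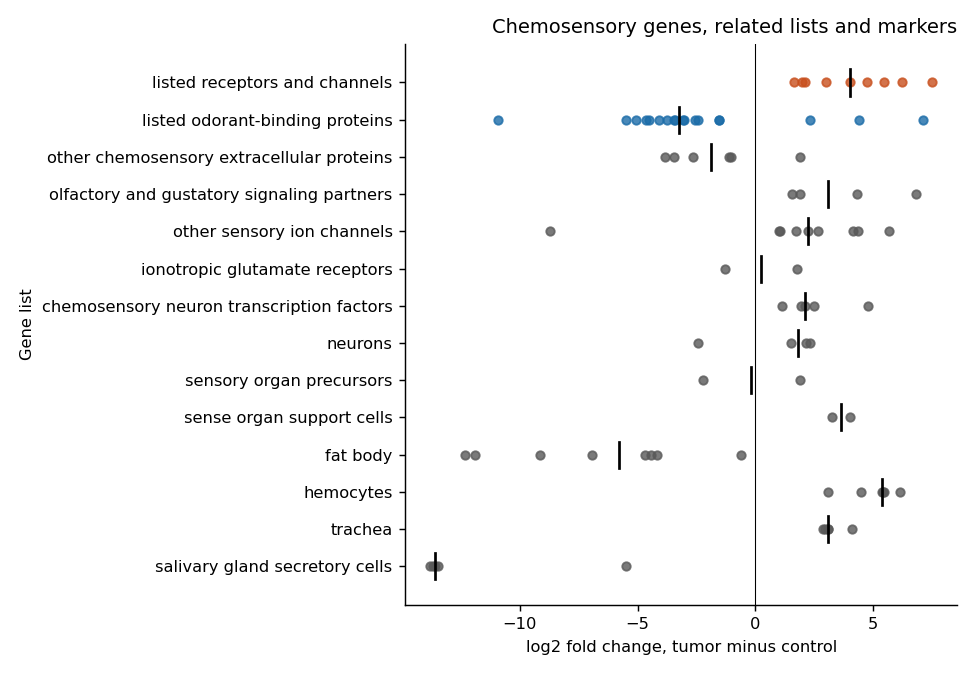
Log2 fold change, tumor minus control, of the listed members (coloured) and of the listed genes of each related list or marker list (grey), with 1 point per gene and a black bar at the median. Obp genes have a median of -3.24, and receptors and channels a median of 4.04. Marker medians are -13.62 (salivary gland secretory cells), -5.80 (fat body), -0.16 (sensory organ precursors) and 1.84 (neurons). Those of trachea, sense organ support cells and hemocytes are 3.09, 3.64 and 5.40. The medians of sensory organ precursors and of sense organ support cells each rest on 2 listed genes.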

How the data were processed

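RNA of 3 control and 3 tumor samples was sequenced. The submitters' processing notes name featureCounts for counting and DESeq2 for the comparison. Aligner, genome build, annotation and strand setting: not given in the sources used here. For each called gene the authors deposited a log2 fold change (a shrunken estimate), an unshrunk value used here as a score (above 100 in size where a group is fitted at 0), a mean log2 CPM, and a p-value with its adjusted p. Per the file headers the columns are named as in edgeR's glmTreat, and the tool behind the values is not settled here. Call numbers stand under the headings 1.2 and 2 in another deposited sheet, and the gene rows match heading 1.2 (3187 higher, 2969 lower of 9384 tested).

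No value per sample was used, so no edgeR test was run and the authors' adjusted p below 0.05 counts as a call; depth per library is unknown and no counting interval is given. Members were picked by symbol and named without selection. Members and gene lists (128 entries in 12 lists, 5 symbols not found) were chosen with earlier results of these data known. From each list up to 4 genes with the smallest adjusted p were named, with elav, nSyb, Orco, lush and Snmp1. CPM per group was estimated from the mean CPM and the fold change, and the estimates over all listed genes total 1224976 CPM for control but 351471 CPM for tumor. Exon lengths, overlaps and gene order came from the BDGP6 annotation (version 54, Ensembl release 115), matched by gene ID for all 29 members; the authors' build is unknown and coordinates are left out. Comparisons of direction by level and of p among like genes were added after the data were examined and are descriptions. Alternatives were a limit of 0.01 on the adjusted p, a 2-fold minimum, the lower quartile of mean log2 CPM (3.06) as a filter, the unshrunk fold change and the mean. Scripts used Python 3.11.15, pandas 2.3.3 and numpy 2.4.6 and were tested on simulated data.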

Additional observations from a re-analysis of the deposited data

How the results depend on the processing

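At an adjusted p below 0.01 the Obp genes called higher went from 3 to 1 (Obp50e) and the CheB gene was no longer called (0 of 1), with 11 lower Obp genes and 7 higher receptor and channel genes left. At that limit 26.2% of the 9384 tested genes were higher and 25.8% lower. With genes below the lower quartile of mean log2 CPM left out, 9 lower Obp genes, 0 receptor and channel genes and 0 Che genes in either direction remained, because all of the latter lie below it. With that filter the called genes made up 22.3% (higher) and 26.9% (lower) of those tested. Without genes fitted at 0 in control, 0 Che genes were higher. A 2-fold minimum on the estimated fold change, which is not a test against 2-fold, changed no count of members. Over all tested genes it left 26.7% higher and 23.5% lower. Under their heading 2 the authors count 1845 genes higher and 1705 lower. Which members are among those is not given. The Obp median of -3.24 was -3.25 with unshrunk values, -2.53 as a mean and -3.75 above the lower quartile. The receptor median of 4.04 was 3.57 with unshrunk values without Ir60a and 4.09 as a mean (4.085), and has no value above the lower quartile. The alternatives leave genes out or keep the sign of each fold change, so no gene's direction could reverse. No paired analysis was possible because the result comes from no test on sample values: the files used hold none. For the same reason leaving out each replicate and other count normalizations were not run.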
